A study of Caenorhabditis elegans with 15 samples.

Results

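The genes described here are 204 genes of Caenorhabditis elegans whose RNA was almost absent from wild-type adults and present in adults lacking gld-2, and which carry none of the usual names of sperm gene families. They were chosen from the raw count table by 2 limits: at most 10 counts summed over the 3 wild-type libraries, and at least 500 counts summed over the 3 gld2 libraries. Of 46739 genes in the table, 227 met both limits. Genes with WBcel235 symbols that start with msp, spe, fer, ssp, msd, nspd or gsp were left out (23 of the 227), which gave the 204 members. The wt and gld2 counts therefore chose the members, so their levels in these libraries, and counts of calls against gld2, are given as a description that supports nothing.

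The 15 libraries hold RNA of whole adult worms, hand-picked 24 h after the middle of the L4 larval stage, with 3 libraries for each of 5 genotypes. These are wild type (wt), a knock-out of gld-2 (gld2), and 3 double knock-outs that add ccf1 (gld2-ccf1), ccr4 (gld2-ccr4) or parn1 (gld2-parn1). All 4 mutant genotypes share the gld-2 knock-out, the labels name no alleles, and nothing says that replicates came from separate cultures, so p-values measure the spread between these samples, which may be technical. The question, from the series' design text, is how adults without a cytoplasmic poly(A) polymerase compare with adults that also lack a deadenylase.

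The hermaphrodite germline of C. elegans makes sperm in the last larval stage and then switches to making oocytes, which it continues in the adult. GLD-2 is a cytoplasmic poly(A) polymerase that lengthens the poly(A) tails of germline mRNAs, whereas CCF-1, CCR-4 and PARN-1 are deadenylases that shorten tails. Genes of spermatogenesis are turned on early in germ cells that become sperm, and many of them lie on autosomes, since the X chromosome is largely silent in the germline during spermatogenesis.

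Library totals ran from 28.07 to 39.45 M counts (M, 1000000). RNA of gld-2 stood at 185 to 247 CPM in wt and 46.5 to 80.6 CPM in the mutants, and ccr-4 at 161 to 176 CPM in gld2-ccr4 against 262 to 292 CPM in gld2. But ccf-1 was not reduced in the libraries labelled gld2-ccf1, where it took 1.65% to 4.97% of all counts. It was far higher there, at 15540 to 47500 CPM, than in gld2, at 28.3 to 36.7 CPM. Nor was parn-1 reduced in the libraries labelled gld2-parn1, so these genotypes are called by their labels. RNA of parn-1 was lowest in gld2-ccf1, at 25.2 to 30.3 CPM, against 48.1 to 55.4 CPM in gld2 and 55.3 to 64.3 CPM in gld2-parn1. It was lower in gld2-ccf1 than in gld2-parn1 (log2 fold change -1.1, SE 0.10, edgeR adjusted p = 6.95e-08). Nuclear ribosomal RNA took more than 4% of the counts in 4 libraries: wt replicate 1, gld2 replicate 3, gld2-ccf1 replicate 2 (the most, 14.3%) and gld2-parn1 replicate 3. Levels below are CPM, counts per 1000000 of the library size after scaling by the trimmed mean of M values (TMM), and CPM per kb divides by the length of a gene's exons.

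Together the 204 members were nearly silent in wt and took 0.204% of the counts of the gld2 libraries. Their summed level was 5.58, 5.12 and 12.5 CPM in wt replicates 1 to 3. It was 1516, 2078 and 2338 CPM in gld2, and 1051, 1045 and 1306 CPM in gld2-ccf1. In gld2-ccr4 the sum was 2022, 1733 and 2192 CPM, and in gld2-parn1 it was 2987, 2826 and 3239 CPM. All gld2-ccf1 libraries were below, and all gld2-parn1 libraries above, every library of the other mutants, while gld2 and gld2-ccr4 overlapped. The 23 genes of named sperm families that met the same limits summed to 222, 246 and 259 CPM in gld2, 126 to 166 CPM in gld2-ccf1, 188, 161 and 184 CPM in gld2-ccr4 and 308, 288 and 373 CPM in gld2-parn1. Their gld2-ccr4 libraries lay below all gld2 libraries, which was not so for the 204 members. In whole worms, fewer cells of a type and less RNA per cell cannot be told apart.

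**Figure D1:**
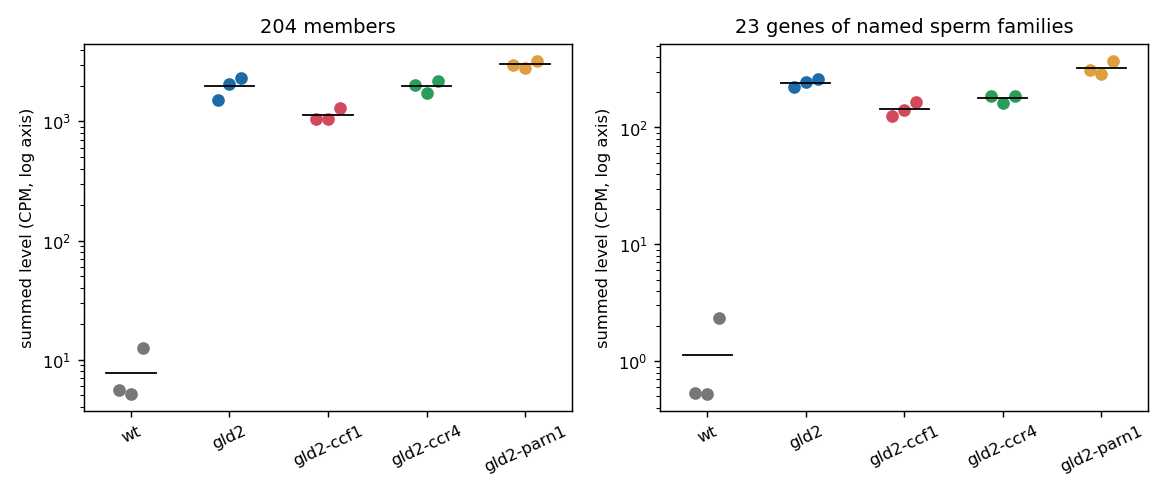
Summed level in CPM (log axis) of the 204 members (left) and of the 23 genes of named sperm families within the same limits (right). Each point is a library and each line the mean of the 3 libraries of a genotype: the members lie between 1045 and 1306 CPM in gld2-ccf1 and between 2826 and 3239 CPM in gld2-parn1.

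In wt, 37 of the members had no count in any library, and no member had more than 10 counts in a library. Members with a count numbered 73, 66 and 121 in wt replicates 1 to 3, and the counts of all members summed to 168, 147 and 455, so replicate 3 was the highest. In gld2 the median member had 880 counts over the 3 libraries and the highest had 5789. Of the gld2 libraries, replicate 1 was the lowest for 188 of the 204 members. Just inside the wt limit lay T22C1.8 and C09B9.2, with 10 counts in wt and 2301 and 1916 in gld2. Just outside lay clec-79 and C17H12.3, with 11 counts in wt and 3988 and 2131 in gld2. At the gld2 limit, W01B6.6 (501 counts) and Y57G11C.23 (510) lay inside, and C04E6.5 (498) and ZK616.61 (497) outside.

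Most members are known by a sequence name alone: 156 have no symbol that names a role, and 48 do. The annotation lists 199 as protein-coding, 4 as pseudogenes and 1 as a non-coding RNA. Exons of 30 members overlap those of another gene, 9 on the same strand and 22 on the other; libraries were strand-specific per the labels, but whether counting used strand is not stated, so reads of such pairs may not be told apart. All 204 passed the filter on low counts, through the mutant libraries in which they are high.

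The most abundant member in gld2 was Y113G7C.1 (WBGene00013771, WBcel235 chromosome V, 20317742 to 20324032), with 35.5, 52.9 and 62.3 CPM in gld2 and 0, 3 and 3 counts in wt. It had 21.6, 22.8 and 27.5 CPM in gld2-ccf1, 48.0, 39.6 and 59.1 CPM in gld2-ccr4 and 70.7, 76.8 and 88.5 CPM in gld2-parn1. The double mutants did not overlap: gld2-ccf1 was the lowest and gld2-parn1 the highest. R09E10.2 (chromosome IV, 10317563 to 10318299) had 36.7, 49.3 and 56.1 CPM in gld2 but 24.2, 28.7 and 31 CPM in gld2-ccr4, with no overlap. Its gld2-ccf1 libraries were lower still, at 14, 12.2 and 21.8 CPM, and those of gld2-parn1 were the highest, at 71.0, 60.3 and 64.5 CPM. C14C10.1, also on chromosome V, had 31.1, 35.9 and 37.4 CPM in gld2, 18.3, 17.4 and 24.2 CPM in gld2-ccf1 and 44, 43.4 and 41.0 CPM in gld2-parn1. The other abundant members, clec-73 (a C-type lectin gene), ttbk-8.2 (a kinase gene) and Y69E1A.1, had between 24.4 and 49.5 CPM in each gld2 library. The 10 highest members made up 16.9% of the summed level in gld2 and 16.3% to 17.3% in the double mutants. Per length of exons, the highest of the longer members in gld2 was R09E10.2 at 68.6 CPM per kb, against a median member at 5.68. Only nspa-8 (130.9 CPM per kb) and nspa-5 (100 CPM per kb) were above it; both have 34 codons, and the nspa genes have near-identical copies, so their counts are uncertain.

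The comparisons between double mutants used no library of the rule. In them nearly all members had the same order: lowest in gld2-ccf1 and highest in gld2-parn1. The edgeR quasi-likelihood test (two-sided, 16888 genes, Benjamini-Hochberg adjusted p under 0.05) called 96.1% of the 204 members lower in gld2-ccf1 than in gld2-parn1, where 17.2% of all tested genes were lower. It called 3 higher (20% of all tested genes). The median log2 fold change of the members was -1.43, against 0.00 over all tested genes. Between gld2-ccf1 and gld2-ccr4, 132 members were lower and 2 higher (11.6% and 14.4% of all tested genes), with a median of -0.80 against 0.00. Between gld2-ccr4 and gld2-parn1, 67 members were lower and 0 higher (5.95% and 7.34% of all tested genes), with a median of -0.59 against -0.02. That last count fell to between 29 and 50 when any 1 library of these genotypes was left out, which leaves 2 libraries in 1 genotype. It was 29 without gld2-ccr4 replicate 2, 41 without gld2-parn1 replicate 1 and 34 without gld2-parn1 replicate 3.

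All gld2-ccf1 libraries were below all gld2-parn1 libraries for 199 members (24.2% of all tested genes) and below all gld2-ccr4 libraries for 162 (19.4%). All gld2-ccr4 libraries were below all gld2-parn1 libraries for 160 (19.3%). The full order of gld2-ccf1, gld2-ccr4 and gld2-parn1 without overlap held for 128 members, or 62.7%, and for 4.89% of all tested genes. By means, 192 members were lowest in gld2-ccf1 and highest in gld2-parn1. The test called 39 members both lower in gld2-ccf1 than in gld2-ccr4 and lower in gld2-ccr4 than in gld2-parn1. For the counts by means and by both calls, the share over all tested genes was not computed, so they describe the members alone. The 3 comparisons share libraries, so their counts are not independent of each other. Among the 23 genes of named sperm families, 4 were lower in gld2-ccf1 than in gld2-ccr4 (11.6% of all tested genes). In gld2-ccf1 against gld2-parn1, 21 were lower (17.2%), and in gld2-ccr4 against gld2-parn1, 17 were lower (5.95%).

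**Figure D2:**
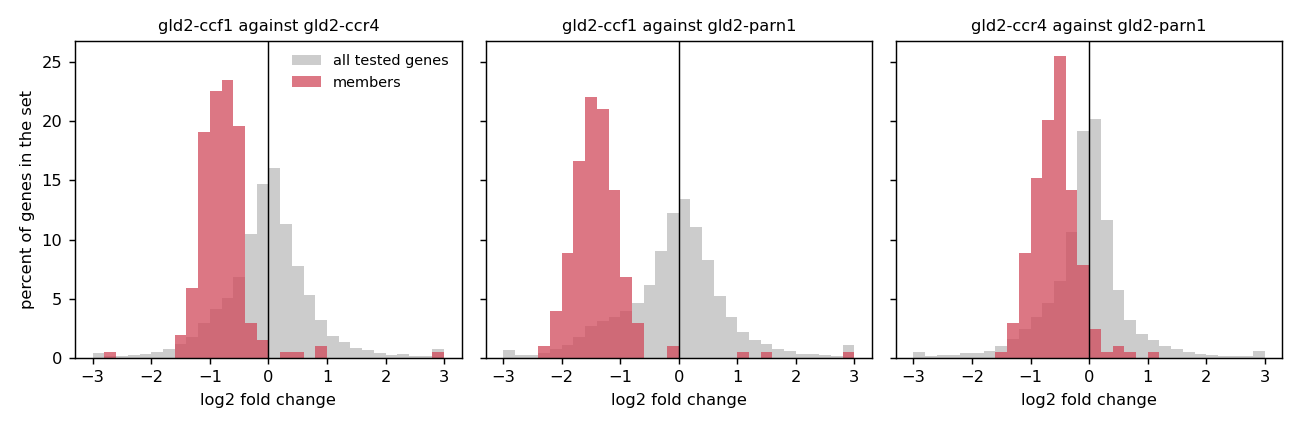
Percent of genes (vertical axis) by log2 fold change (horizontal axis, bins of 0.2) for the 204 members and for all 16888 tested genes in the 3 comparisons of double mutants, with values beyond the axis placed in the outer bins. The members' medians are -0.80, -1.43 and -0.59, left of the black line at 0.

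**Figure D3:**
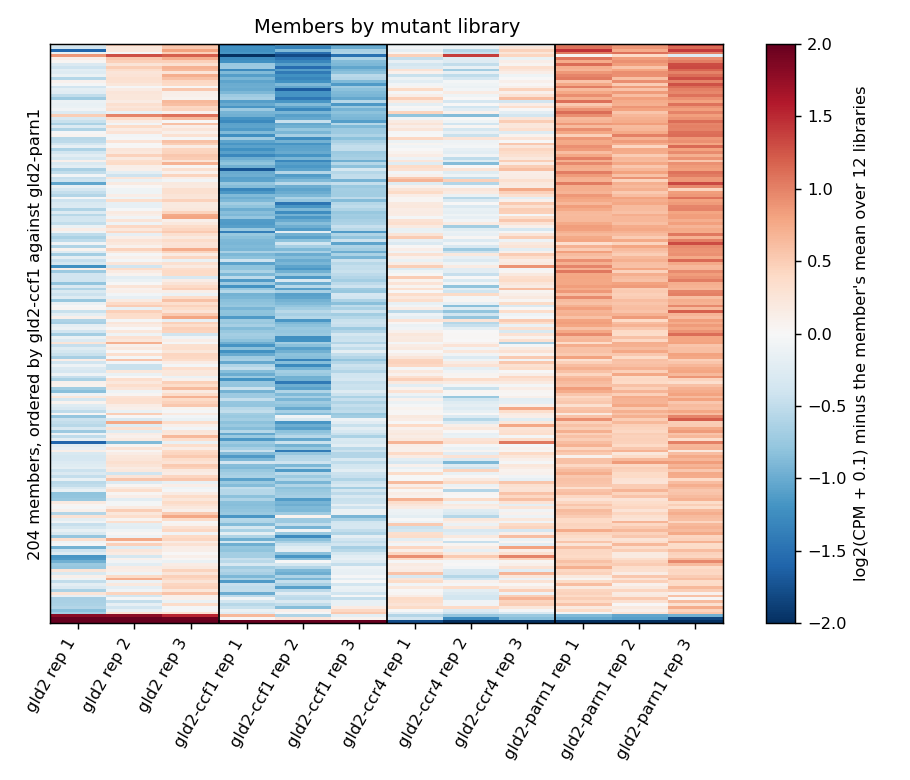
Level of each member (rows) in the 12 mutant libraries (columns), as log2(CPM + 0.1) minus the member's mean over the 12 libraries, with blue below and red above it. Rows are ordered by the fold change of gld2-ccf1 against gld2-parn1; the 3 gld2-ccf1 columns are blue and the 3 gld2-parn1 columns red for nearly all rows, and the last 3 rows (fbxa-136, C38D9.13 and F56D6.9) show the opposite for gld2-parn1.

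Oocyte markers differed in the comparisons with gld2-ccf1. A list of 10 oocyte genes summed to 4378, 6661 and 4832 CPM in gld2-ccf1, against 3749 to 3954 CPM in gld2-ccr4 and 3844 to 4280 CPM in gld2-parn1. Of its genes, 8 were higher in gld2-ccf1 than in gld2-ccr4 and 6 higher than in gld2-parn1 (14.4% and 20% of all tested genes). In both comparisons 0 were lower (11.6% and 17.2% of all tested genes). Between gld2-ccr4 and gld2-parn1, where the members also differed, 0 were higher and 1 lower, rme-2 (7.34% and 5.95% of all tested genes). The list's median log2 fold change there was -0.07. The highest of the gld2-ccf1 sums was that of replicate 2, the library with 14.3% nuclear ribosomal RNA. The same list stood at 3546 to 3620 CPM in gld2 and 7943 to 9213 CPM in wt. The part of these differences in the members' levels was not tested. Genes of male somatic cells were low: the 11 listed genes summed to 0.386 to 0.830 CPM in wt, 4.72 to 5.14 CPM in gld2 and 2.09 to 4.73 CPM in the double mutants. All mutant libraries were thus above all wt libraries, as for the members, and the part of this in the members' levels was not tested. Of these genes, pkd-2 and cwp-1 of male sensory neurons had at most 0.584 and 0.176 CPM in a library. Most of the sum in gld2 came from her-1, mab-3 and try-5, at means of 1.99, 1.14 and 0.940 CPM. In wt they had means of 0.311, 0.0961 and 0.0111 CPM. The mean of lov-1 was 0.290 CPM in gld2 and 0.0111 CPM in wt, while cwp-4 had 0.0991 CPM in gld2 and 0.143 CPM in wt. Genes of molting and late larvae (10 listed) summed to 73 to 87.3 CPM in wt and 62.0 to 95.8 CPM in the mutants, and 6 genes of the spermatheca and gonadal sheath to 36.5 to 43.8 CPM in wt and 42.4 to 69.8 CPM in the mutants.

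Counts of called members within a role group are to be read against the shares over all 204 members. These were 96.1% lower in gld2-ccf1 than in gld2-parn1, 64.7% lower in gld2-ccf1 than in gld2-ccr4 and 32.8% lower in gld2-ccr4 than in gld2-parn1 (17.2%, 11.6% and 5.95% of all tested genes). No role group was tested against the other members, and none is called different from them.

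Of the members with a named role, 7 encode protein kinases, and all 7 lie on chromosome IV. All 7 were lower in gld2-ccf1 than in gld2-parn1, 5 were lower in gld2-ccf1 than in gld2-ccr4, and 3 lower in gld2-ccr4 than in gld2-parn1. The kinase gene ttbk-8.2 (tau tubulin kinase family) had 22.3, 18.4 and 28.1 CPM in gld2-ccf1 and 59.3, 61.2 and 59.9 CPM in gld2-parn1. This was a log2 fold change of -1.39 (SE 0.20, edgeR adjusted p = 1.03e-04), and its gld2-ccr4 libraries lay between, at 45.0, 37.3 and 44.4 CPM. Its relative ttbk-4 had 10.9, 11.4 and 12.2 CPM in gld2-ccf1 and 27, 29.9 and 27.2 CPM in gld2-parn1. The tyrosine kinase gene kin-24 had 3.66, 3.4 and 5.44 CPM in gld2-ccf1, 5.84, 5.57 and 7.54 CPM in gld2-ccr4 and 15.8, 15.2 and 17.4 CPM in gld2-parn1. Its gld2-ccr4 levels were nearer to those of gld2-ccf1, with log2 fold changes of -1.35 (SE 0.23, edgeR adjusted p = 6.19e-04) against gld2-parn1 and -0.59 (SE 0.24, edgeR adjusted p = 0.0727) for gld2-ccf1 against gld2-ccr4. The others, kin-5, kin-21, kin-26 and frk-1, had between 1.17 and 8.46 CPM in gld2-ccf1 and between 5.35 and 22.1 CPM in gld2-parn1.

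Both phosphatase genes followed the kinases in the comparison of gld2-ccf1 with gld2-parn1. The tyrosine phosphatase gene ptp-5.2, with 0 counts in wt, had 3.45, 3.4 and 4.12 CPM in gld2-ccf1, 5.68, 3.25 and 4.80 CPM in gld2-ccr4 and 9.79, 9.08 and 11.6 CPM in gld2-parn1. Only its gld2-parn1 libraries stood apart, since those of gld2-ccf1 and gld2-ccr4 overlapped. The acid phosphatase gene acp-3 had 2.28, 1.43 and 2.82 CPM in gld2-ccf1, 4.59, 4.46 and 4.50 CPM in gld2-ccr4 and 6.22, 5.27 and 5.06 CPM in gld2-parn1, and the test did not separate gld2-ccr4 from gld2-parn1 (-0.29 on the log2 scale, SE 0.26, edgeR adjusted p = 0.53).

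The 4 neprilysin genes, which encode metallopeptidases of the cell surface or secreted space, had the same order. All 4 were lower in gld2-ccr4 than in gld2-parn1 and in gld2-ccf1 than in gld2-parn1, with medians of -1.02 and -1.88, and 3 were lower in gld2-ccf1 than in gld2-ccr4. The gene nep-13 (chromosome II, 3282653 to 3287174) had 3.45, 2.73 and 5.15 CPM in gld2-ccf1, 8.16, 5.77 and 9.41 CPM in gld2-ccr4 and 16.4, 16.9 and 16.0 CPM in gld2-parn1. The 3 double mutants did not overlap, and the log2 fold change of gld2-ccf1 against gld2-parn1 was -2.1 (SE 0.25, edgeR adjusted p = 2.41e-06). The gene nep-23 had 5.27, 5.03 and 6.35 CPM in gld2-ccf1 and 21.4, 18.9 and 22.8 CPM in gld2-parn1, a log2 fold change of -1.91 (SE 0.20, edgeR adjusted p = 4.60e-07). Both nep-5 and nep-6 had 0 counts in wt and were likewise lowest in gld2-ccf1, at 1.68 to 4.99 CPM, and highest in gld2-parn1, at 6.62 to 13 CPM.

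Of 5 genes of chromatin, small RNA and inheritance through sperm, 2 were lower in gld2-ccf1 than in gld2-ccr4 and all 5 lower in gld2-ccf1 than in gld2-parn1. The gene spch-1, for a basic protein of sperm chromatin, had 14.2, 20.7 and 17.3 CPM in gld2-ccf1, 20.4, 20.1 and 21.3 CPM in gld2-ccr4 and 31.1, 28.3 and 40.5 CPM in gld2-parn1. Its gld2-ccf1 and gld2-ccr4 libraries overlapped (log2 fold change -0.25, SE 0.23, edgeR adjusted p = 0.485). Its relative spch-3, also of sperm chromatin, had 6.91, 10.7 and 8.29 CPM in gld2-ccf1 and 16.2, 17.1 and 18.7 CPM in gld2-parn1; reads may be shared among the spch genes. The gene pei-1, for a protein of granules that carry small RNA pathways in sperm, had 7.05, 5.33 and 9.27 CPM in gld2-ccf1, 14.3, 12.6 and 15.6 CPM in gld2-ccr4 and 20, 16.7 and 21.8 CPM in gld2-parn1, with no overlap. The Argonaute gene wago-10 had 8.60, 8.39 and 7.67 CPM in gld2-ccf1, 12.2, 10.8 and 11.5 CPM in gld2-ccr4 and 15.1, 15.2 and 16.8 CPM in gld2-parn1. For rnh-1.1, of the RNase H family, which had 0 counts in wt, the double mutants also did not overlap, at 4.95 to 7.85, 9.07 to 14 and 17.3 to 22.2 CPM.

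Beside the genes of sperm chromatin and inheritance above, 2 members were grouped by symbol as other sperm genes. The rule had left out the named sperm families beforehand. The gene comp-1, needed for the competitive success of sperm, had 3.51, 4.19 and 7.18 CPM in gld2-ccf1, 8.28, 9.66 and 10.1 CPM in gld2-ccr4 and 12.4, 14.1 and 12.6 CPM in gld2-parn1, without overlap. The sperm-specific family gene ssq-3 had 3.28, 7.84 and 3.92 CPM in gld2-ccf1 and 10.7, 9.31 and 11.6 CPM in gld2-parn1, and its gld2-ccf1 and gld2-ccr4 libraries overlapped. Of 15 other sperm genes listed, 13 were tested and only these 2 are members. In gld2-ccf1, 11 of the 13 were lower than in gld2-parn1 and 3 lower than in gld2-ccr4 (17.2% and 11.6% of all tested genes). In gld2-ccr4, 1 was lower than in gld2-parn1 (ssq-1), where 5.95% of all tested genes were lower. With 1 gene, nothing is read from that last count. In each comparison 0 were higher (20%, 14.4% and 7.34% of all tested genes). The Argonaute genes alg-3 and alg-4 of spermatogenesis, which are not members, had 24.3 to 29.8 and 31.2 to 40.7 CPM in gld2-ccf1 and 60.2 to 79.5 and 84.5 to 102 CPM in gld2-parn1. Of 27 genes of sperm and oocyte fate, none is a member. In gld2-ccf1 against gld2-parn1, 10 were higher and 4 lower (20% and 17.2% of all tested genes). The higher were fem-3, spe-44, fbf-1, fbf-2, tra-2, puf-8, nos-3, rnp-8, cpb-3 and fem-2, and the lower fog-2, cpb-2, fog-3 and mog-1. In gld2-ccf1 against gld2-ccr4, 11 were higher and 3 lower (14.4% and 11.6% of all tested genes). In gld2-ccr4 against gld2-parn1, 2 were higher and 3 lower (7.34% and 5.95%).

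All 7 genes of transporters and membrane proteins were lower in gld2-ccf1 than in gld2-parn1, 6 lower in gld2-ccf1 than in gld2-ccr4 and 2 lower in gld2-ccr4 than in gld2-parn1. The nucleoside transporter gene ent-3 had 9.04, 9.73 and 12.6 CPM in gld2-ccf1, 24.2, 18.9 and 28.7 CPM in gld2-ccr4 and 30.8, 31.3 and 32.8 CPM in gld2-parn1. It was lower in gld2-ccf1 than in gld2-ccr4 by a log2 fold change of -1.19 (SE 0.19, edgeR adjusted p = 1.67e-04). The ABC transporter gene wht-5, with 0 counts in wt, had 6.79, 6.08 and 8.38 CPM in gld2-ccf1, 10.6, 11 and 11.5 CPM in gld2-ccr4 and 16.6, 15.8 and 19.8 CPM in gld2-parn1. The ABC transporter genes wht-4 and wht-8, the Na/K ATPase subunit gene nkb-2, the claudin-like clc-10 and the sideroflexin gene sfxn-1.1 had between 2.22 and 6.06 CPM in gld2-ccf1 and between 5.56 and 14.3 CPM in gld2-parn1.

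Of 9 enzymes of metabolism and protein modification, 8 were lower in gld2-ccf1 than in gld2-parn1, 6 lower in gld2-ccf1 than in gld2-ccr4 and 2 lower in gld2-ccr4 than in gld2-parn1. The phosphofructokinase gene pfk-1.2 had 7.52, 8.26 and 7.72 CPM in gld2-ccf1, 14.5, 11.5 and 14.9 CPM in gld2-ccr4 and 23.9, 23.4 and 24.9 CPM in gld2-parn1, without overlap. The carboxylesterase family gene cest-1.1 (chromosome V, 14163255 to 14166730) had 9.77, 13.2 and 12.3 CPM in gld2 but 0.819, 1.47 and 1.84 CPM in gld2-ccf1. It had 7.44, 14.1 and 7.19 CPM in gld2-ccr4 and 5.54, 7.09 and 4.50 CPM in gld2-parn1, so it was lowest in gld2-ccf1 but not highest in gld2-parn1. Its log2 fold change for gld2-ccf1 against gld2-ccr4, -2.79 (SE 0.34, edgeR adjusted p = 1.20e-05), was the most negative of any member in that comparison. The palmitoyltransferase gene dhhc-13, with 0 counts in wt, had 2.05, 2.43 and 3.21 CPM in gld2-ccf1, 6.19, 6.16 and 8.84 CPM in gld2-ccr4 and 8.63, 8.55 and 7.12 CPM in gld2-parn1, the latter pair overlapping. The isoprenylcysteine methyltransferase gene icmt-1 was the exception: it had 12.8, 15 and 18.5 CPM in gld2-ccf1 and 18.3, 15 and 19 CPM in gld2-parn1, which overlapped (log2 fold change -0.17, SE 0.22, edgeR adjusted p = 0.57). F52H3.6 also had a small difference there (-0.15, SE 0.28, edgeR adjusted p = 0.72), and Y43C5B.2, F38H4.4 and F41G3.5 missed the threshold with log2 fold changes of -0.73, -0.89 and -0.88.

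Several of these enzymes have a close relative that is not a member and was expressed in wt. Per length of exons, pfk-1.1 had 31.8 CPM per kb in wt and 51.2 in gld2, while pfk-1.2 had 0.0160 and 6.66. The cytochrome c gene cyc-2.1 had 552 CPM per kb in wt and 569 in gld2, while the member cyc-2.2 had 0.118 and 27.9. The dienoyl-CoA reductase gene decr-1.1 had 41.9 and 60.4 CPM per kb, against 0.0714 and 5.62 for the member decr-1.2. In each of these pairs the member had the lower level in gld2 as well as in wt. The relatives ptp-5.1, sfxn-1.2 and spch-2 resembled the members instead, with at most 0.0750 CPM per kb in wt and 4.39, 1.68 and 4.95 in gld2.

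Among 6 genes of adaptor and scaffold proteins, 5 were lower and 1 higher in gld2-ccf1 than in gld2-parn1. The kelch repeat gene kel-10 had 13.4, 12.7 and 16.1 CPM in gld2-ccf1, 31.1, 29.3 and 35.7 CPM in gld2-ccr4 and 39.1, 35.6 and 47.4 CPM in gld2-parn1; the latter pair overlapped. For mpz-4, a gene of multiple PDZ domains, gld2-ccf1 (6.09, 7.80 and 9.22 CPM) and gld2-ccr4 (9.91, 9.44 and 12.3 CPM) were closer to each other than to gld2-parn1 (17.2, 18.1 and 18.2 CPM). The F-box gene fbxa-136 was the one that was higher and is described with the other exceptions.

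Among members with a sequence name alone, 150 of 156 were lower and 2 higher in gld2-ccf1 than in gld2-parn1. The most negative value of all members in that comparison was that of C06C6.7 (chromosome V, 15992150 to 15995642). It had 1.78, 2.27 and 2.28 CPM in gld2-ccf1, 4.18, 4.21 and 4.42 CPM in gld2-ccr4 and 9.79, 9.42 and 13.2 CPM in gld2-parn1, a log2 fold change of -2.36 (SE 0.26, edgeR adjusted p = 1.01e-06). F36D3.5, on the same chromosome, showed the same order at a higher level, with 8.98, 8.30 and 10.4 CPM, then 19.9, 19.3 and 24.7 CPM, then 44.4, 38.5 and 45.8 CPM. In WBGene00022079, annotated as a pseudogene, the libraries of a genotype spread more, at 17, 10.5 and 16.6 CPM in gld2-parn1 and 2.60, 3.31 and 3.95 CPM in gld2-ccf1. C01G10.1 had gld2-ccr4 libraries close to those of gld2-ccf1, and so had nspa-8, which has a symbol and is not among the 156. The gene nspa-8 had 3.75, 3.44 and 3.97 CPM in gld2-ccf1, 4.21, 4.02 and 5.76 CPM in gld2-ccr4 and 14.2, 11.8 and 13.1 CPM in gld2-parn1. Its log2 fold change for gld2-ccr4 against gld2-parn1 was -1.48 (SE 0.24, edgeR adjusted p = 3.57e-04), with no overlap. In T02E1.7 and K09C6.7 the gld2-ccr4 and gld2-parn1 libraries overlapped and lay above those of gld2-ccf1. F47D12.7 was highest in gld2-ccr4: it had 7.17, 5.08 and 9.90 CPM in gld2-ccf1, 22, 16.6 and 22.9 CPM in gld2-ccr4 and 15.2, 13 and 15.5 CPM in gld2-parn1.

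A few members (3) ran against the rest and were singled out after their values were seen. The non-coding RNA gene C38D9.13 (WBGene00235090, chromosome V, 17573208 to 17574227) had 3.93, 4.76 and 4.75 CPM in gld2 and 3.4, 6.67 and 3.38 CPM in gld2-ccf1. It had 5, 2 and 0 counts in gld2-ccr4 and 3, 0 and 0 counts in gld2-parn1, which is near its level in wt (0, 0 and 1 counts). It was higher in gld2-ccf1 than in gld2-ccr4 (edgeR adjusted p = 6.10e-07) and than in gld2-parn1 (edgeR adjusted p = 1.61e-07). The gene fbxa-136 lies on the same chromosome (17521035 to 17527479) and had 9.05, 9.01 and 8.26 CPM in gld2, 2.05, 2.43 and 2.16 CPM in gld2-ccf1, 1.55, 0.789 and 1.1 CPM in gld2-ccr4 and 0.971, 0.900 and 0.500 CPM in gld2-parn1. All its gld2 libraries were above all double mutant libraries. F56D6.9 (chromosome IV, 3892327 to 3893326), of 63 codons, had 5.77, 5.71 and 4.73 CPM in gld2, 2.55, 1.01 and 1.37 CPM in gld2-ccf1, and 0.715 to 1.02 CPM in the other double mutants. Its exons overlap another gene on the same strand, so its counts are uncertain.

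**Figure D4:**
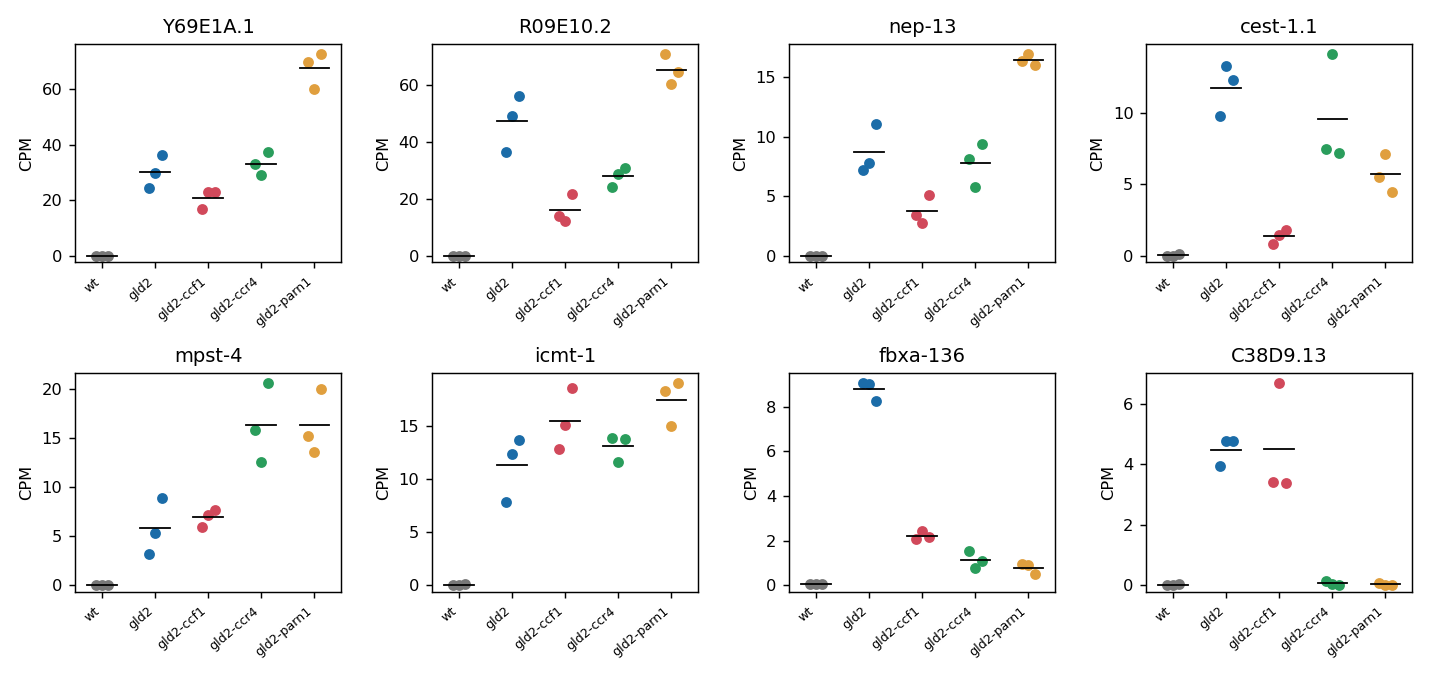
Level in CPM of 8 members in each library (points) with the mean of each genotype (line). Y69E1A.1, R09E10.2 and nep-13 are highest in gld2-parn1, and cest-1.1 is lowest of the mutants in gld2-ccf1. The gene mpst-4 is higher in gld2-ccr4 and gld2-parn1 than in gld2-ccf1. For icmt-1, gld2-ccf1 overlaps with each of the other mutants, and wt is near 0. Both fbxa-136 and C38D9.13 are near 0 in gld2-parn1, and C38D9.13 also in gld2-ccr4.

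The double mutants were then set beside gld2. Here the limit on gld2 counts chose the members and favours high gld2 values, so the counts below are a description and nothing is read from them; the 3 comparisons also share the gld2 libraries. In gld2-ccf1, 141 members were lower and 0 higher (16.7% and 19.8% of all tested genes), with a median log2 fold change of -0.81 against 0.00 over all tested genes. With 1 library left out, the count of lower members ran from 89 (without gld2 replicate 3) to 162. In gld2-ccr4, 11 were lower and 8 higher (9.23% and 11.1% of all tested genes), with a median of 0.00, and the counts were 2 to 9 higher and 4 to 15 lower when 1 library was left out. In gld2-parn1, 60 were higher and 4 lower (4.9% and 4.9% of all tested genes), with a median of 0.61 against 0.02. The count of higher members varied with single libraries: it was 16 without gld2 replicate 1, 30 without gld2 replicate 2, 24 without gld2-parn1 replicate 1 and 15 without gld2-parn1 replicate 3. Over all such omissions it ran from 15 to 66, and each omission leaves 2 libraries in 1 genotype.

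For single members the levels are likewise a description. Of those below, mpst-4, ZK1010.5 and F58A6.9 were named for a called change against gld2 without overlap. Their separation from gld2 therefore follows from that choice. Y69E1A.1 had 24.4, 29.7 and 36.4 CPM in gld2 and 69.8, 60.1 and 72.5 CPM in gld2-parn1. These groups did not overlap. The gene mpst-4, for a mercaptopyruvate sulfurtransferase, had 3.23, 5.35 and 8.92 CPM in gld2, 15.9, 12.6 and 20.6 CPM in gld2-ccr4 and 15.3, 13.6 and 20.1 CPM in gld2-parn1. Both double mutants lay above gld2, while its gld2-ccf1 libraries (5.94, 7.21 and 7.72 CPM) overlapped with gld2. ZK1010.5 had 7.56, 11.5 and 9.20 CPM in gld2, 7.55, 7.30 and 9.51 CPM in gld2-ccf1 and 23.5, 15.7 and 26.6 CPM in gld2-parn1. F58A6.9, of 77 codons, had 4.55, 4.99 and 5.62 CPM in gld2, 3.83, 4.99 and 5.76 CPM in gld2-ccf1 and 11.7, 8.73 and 14.5 CPM in gld2-parn1. In both, gld2-ccf1 overlapped with gld2 and gld2-parn1 lay above them.

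What the rule did not use also includes position and gene structure. No member lay on the X chromosome, which held 13.3% of the tested protein-coding genes. Chromosome IV held 64 members, or 31.4%, against 16.9% of the tested protein-coding genes. Chromosomes I, II, III and V held 41, 38, 23 and 38. The X chromosome had 1006 genes with at least 500 counts in gld2, but the lowest wt sum among them was 44, that of dhs-26. In turn, 681 protein-coding genes of the X chromosome had at most 10 counts in wt, and the highest gld2 sum among these was 189, that of F23D12.1. Of the 23 genes of named sperm families, 10 lay on chromosome IV and 0 on X.

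**Figure D5:**
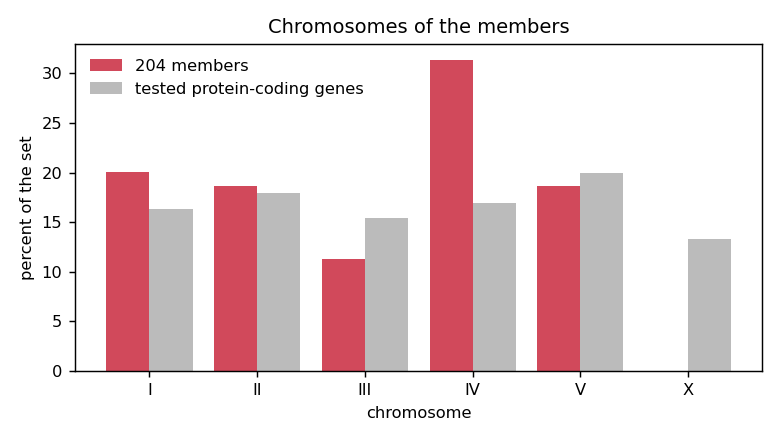
Percent of the 204 members and of the 15367 tested protein-coding genes on each nuclear chromosome (bars, from 0). Chromosome IV holds 31.4% of the members and 16.9% of the tested protein-coding genes, and X holds 0 members and 13.3% of the tested protein-coding genes.

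The protein-coding members were of common size, with a median of 367 codons and 6 exons, against 357 codons and 6 exons over the tested protein-coding genes. Single-exon genes numbered 7 of 199 (3.52%, against 2.13%), and 6 had fewer than 100 codons (3.02%, against 5.02%). Exons of 14.6% overlapped those of another gene on either strand, against 31.4% of the tested protein-coding genes. There were 20 pairs of neighbouring protein-coding genes in which both were members, with 40 members in all. Of the 393 protein-coding neighbours of members, 10.2% were members, while members made up 1.01% of the 19664 annotated protein-coding genes; no test was run. The pairs include wht-4 and nep-13 on the same strand of chromosome II. On opposite strands lie kin-5 with C47E12.11 and ZC477.7 with ssq-3 on chromosome IV, and C50F4.10 with pfk-1.2 on chromosome V.

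These differences depend in part on what the libraries are scaled to. When the libraries were scaled on 108 genes of muscle, intestine, skin and neurons instead, the median of all tested genes moved to 0.17 for gld2-ccf1 against gld2-ccr4 and to -0.14 for gld2-ccr4 against gld2-parn1. Against gld2 it moved to -0.42 for gld2-ccf1, -0.58 for gld2-ccr4 and -0.44 for gld2-parn1. Since a scaling moves all genes alike, the members' median relative to that of all tested genes is set by construction and tells nothing of stability. Under that scaling the members called higher in gld2-parn1 than in gld2 fell from 29.4% to 5.39%, those lower in gld2-ccr4 than in gld2 rose from 5.39% to 52.5%, and those lower in gld2-ccf1 than in gld2-ccr4 fell from 64.7% to 42.2%. Of all called genes, the share that was higher moved from 55.4% to 75.7% for gld2-ccf1 against gld2-ccr4 and from 55.2% to 32.2% for gld2-ccr4 against gld2-parn1. Against gld2 it moved from 54.3% to 16.1% for gld2-ccf1, from 54.6% to 5.53% for gld2-ccr4 and from 50% to 4.16% for gld2-parn1.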

How the data were processed

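RNA of whole worms was depleted of ribosomal RNA with a kit for human, mouse and rat and made into strand-specific libraries, per the labels. The authors deposited raw counts per gene; the submitters' processing notes name, without roles, the aligner STAR (2.5.2b), the counter featureCounts of Subread (1.4.6-p4), DESeq2 (1.18.1) and build WBcel235. The normalized signal that the authors also deposited equalled the counts times 1 constant per library (within 5.5e-10; tolerance 1e-06) and was not used further. How multi-mapping reads were treated is not given in the sources used here.

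Genes passing filterByExpr (16888) were scaled by TMM and fitted in edgeR 4.0.16 (R 4.3.3) with glmQLFit (robust) on 5 genotype means over all 15 libraries (10 residual degrees of freedom, common biological coefficient of variation 0.178). Tests were glmQLFTest, two-sided, Benjamini-Hochberg adjusted over all tested genes, called under 0.05. SE is the log2 fold change over the square root of F. The scripts were tested on simulated data. Alternatives were other scalings and filters, DESeq2 1.42.0, a replicate block, the 6 libraries compared alone, single libraries or those above 4% ribosomal RNA left out, ribosomal RNA genes and ccf-1 left out, and narrower member limits.

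The members, their role groups and the gene lists were chosen with earlier results of these data known. The genes named are the 6 most abundant in gld2, those with the largest called changes in each comparison (mean of at least 2 CPM, no overlap), the 2 most abundant of each role group, those at the limits, called sperm genes and the 4 targeted genes; others were named after their values were seen. Role groups come from gene symbols, since no protein sequences were used. Symbols, positions and exon lengths come from the WBcel235 annotation.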

Additional observations from a re-analysis of the deposited data

How the results depend on the processing

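No named value reversed: of 435 alternatives for 29 named values, 433 kept direction and call, and the call of K09C6.7 (gld2-ccr4 against gld2) was lost in 2. These 29 were picked as the largest called changes without overlap, some of them against gld2. Their stability follows in part from that choice and tells little of the other members. The share of members called moved by over 1.5 times in these cases, the cause of which was not tested unless the setting has fewer samples or members. Lower in gld2-ccf1 than in gld2-ccr4: 42.2% with somatic scaling (64.7% as reported); higher: 0.49% with the 6 libraries compared alone. Lower in gld2-ccr4 than in gld2-parn1 (32.8% as reported): 64.7% with 6 libraries and 50% with DESeq2; higher: 0.49% without a filter and with 6 libraries. Lower in gld2-ccf1 than in gld2 (69.1%): 37.3% without the libraries above 4% ribosomal RNA; higher: 0.49% without a filter. In gld2-ccr4 against gld2, higher (3.92%): 0.98% with somatic scaling, 7.35% without a filter, 6.37% with 6 libraries and without the libraries above 4% ribosomal RNA, 6.86% with DESeq2; lower (5.39%): 52.5% with somatic scaling, 2.94% without those libraries and 9.41% for the 85 members with at least 1000 gld2 counts. In gld2-parn1 against gld2, higher (29.4%): 5.39% with somatic scaling, 47.5% without a filter, 53.9% with 6 libraries and 51.0% with DESeq2. For the 37 members with 0 counts in wt, 0.00% were higher in gld2-ccf1 than in either other double mutant and lower in gld2-parn1 than in gld2, and 8.11% higher and 2.70% lower in gld2-ccr4 than in gld2.

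With 1 replicate left out, the share lower ranged from 47.1% to 65.7% (gld2-ccf1 against gld2-ccr4), 93.1% to 96.6% (gld2-ccf1 against gld2-parn1), 14.2% to 24.5% (gld2-ccr4 against gld2-parn1), 43.6% to 79.4% (gld2-ccf1 against gld2), 1.96% to 7.35% (gld2-ccr4 against gld2) and 1.47% to 1.96% (gld2-parn1 against gld2). The share higher ranged from 0.49% to 0.98%, 0.98% to 1.47%, 0.0% to 0.0%, 0.0% to 0.0%, 0.98% to 4.41% and 7.35% to 32.4% in the same order.

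Replicate numbers did not pair the libraries: same-number correlations ran from -0.0967 to 0.0922, and 7 of 15 libraries correlated best with their own number. With the replicate block, 66.7%, 96.1% and 37.7% of members were lower in the 3 comparisons of double mutants and 73% in gld2-ccf1 against gld2, and 36.3% were higher in gld2-parn1 against gld2.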
